A study of Homo sapiens with 6 samples.

Results

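Keratins, nestin and the nuclear lamins are intermediate filament proteins, and 10 genes of this system are described here, out of 17588 uniquely named genes in the deposited tables. They are 5 keratins (KRT7, KRT8, KRT18, KRT19 and KRT10), nestin (NES), the 3 lamin genes (LMNA, LMNB1 and LMNB2) and LBR, which encodes the lamin B receptor. They were chosen by name, with earlier results of these data known. Each had 1 row in every library, and all 10 passed the filter on low values. The cells were HUVECs, primary endothelial cells of the umbilical vein, grown with serum and transfected with a lipid reagent. In 3 libraries they had received 8OH-G miR-483, in which guanine is oxidised, and in the other 3 unmodified miR-483, with RNA taken on day 2 from both. The scramble control was not analysed here, so every difference is one between the 2 forms of the microRNA and has no baseline without it. Whether libraries of a group are separate cultures or donors is not stated, and the p-values therefore speak only of the spread among these 6 libraries, which may be technical.

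Intermediate filaments are rope-like polymers that give cells and nuclei mechanical strength. Keratins assemble as pairs of a type I chain (here KRT18, KRT19 or KRT10) with a type II chain (here KRT7 or KRT8). In endothelium the main cytoplasmic filament is vimentin, with which nestin copolymerises. Lamins line the inner face of the nuclear envelope: LMNA gives the A-type lamins A and C by alternative splicing, and LMNB1 and LMNB2 give the B-type lamins, which stay farnesylated and bound to the membrane. LBR is a membrane protein that binds B-type lamins and heterochromatin protein 1, and it is also a C14 sterol reductase.

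Levels are in FPKM, that is, per gene length and sequencing depth, a unit inferred from the values. Library totals ran between 1396537 and 1687283 FPKM. The depth in reads is unknown, and counting intervals are not given. All 8 endothelial markers listed were present in both groups; PECAM1, CDH5, VWF, TEK and TIE1 fell, with log2 fold changes of -1.80 (TEK) to -0.48 (TIE1), and ERG, ESAM and EGFL7 did not pass. The 8 summed to 1272 to 1489.5 FPKM with 8OH-G miR-483 and 2045 to 2074 FPKM with miR-483. By limma on log2(FPKM + 1), 55.4% of 12216 tested genes had an adjusted p under 0.05: 35.0% were higher in 8OH-G miR-483 cells and 20.4% were lower. Median-ratio scaling gave 27.3% higher and 27.2% lower, with the median of all tested genes shifted by -0.10. Quantile normalization gave 27.0% higher and 28.0% lower, with a shift of -0.11. A call on any 1 gene is to be read against these shares.

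With 8OH-G miR-483, 6 of the 10 genes rose (KRT7, KRT18, NES, LMNB1, LMNB2 and LBR), which compares with 35.0% of all tested genes, and 1 fell (LMNA), which compares with 20.4%. KRT8, KRT19 and KRT10 did not pass. The same 6 and 1 passed after either scaling. The median log2 fold change of the 10 was 0.64, against 0.10 for all tested genes. In the 7 genes that passed, the values of the groups did not overlap, and this was so for 63.3% of all tested genes (39.7% with 8OH-G miR-483 on top, 23.6% with it below). KRT7, LMNB1 and LMNB2 rose by more than 1 on the log2 scale, as did 5.39% of tested genes, while 2.60% fell by as much. A larger rise than that of KRT7 was seen in 31 tested genes, and a larger one than that of LMNB1 in 104.

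**Figure D1:**
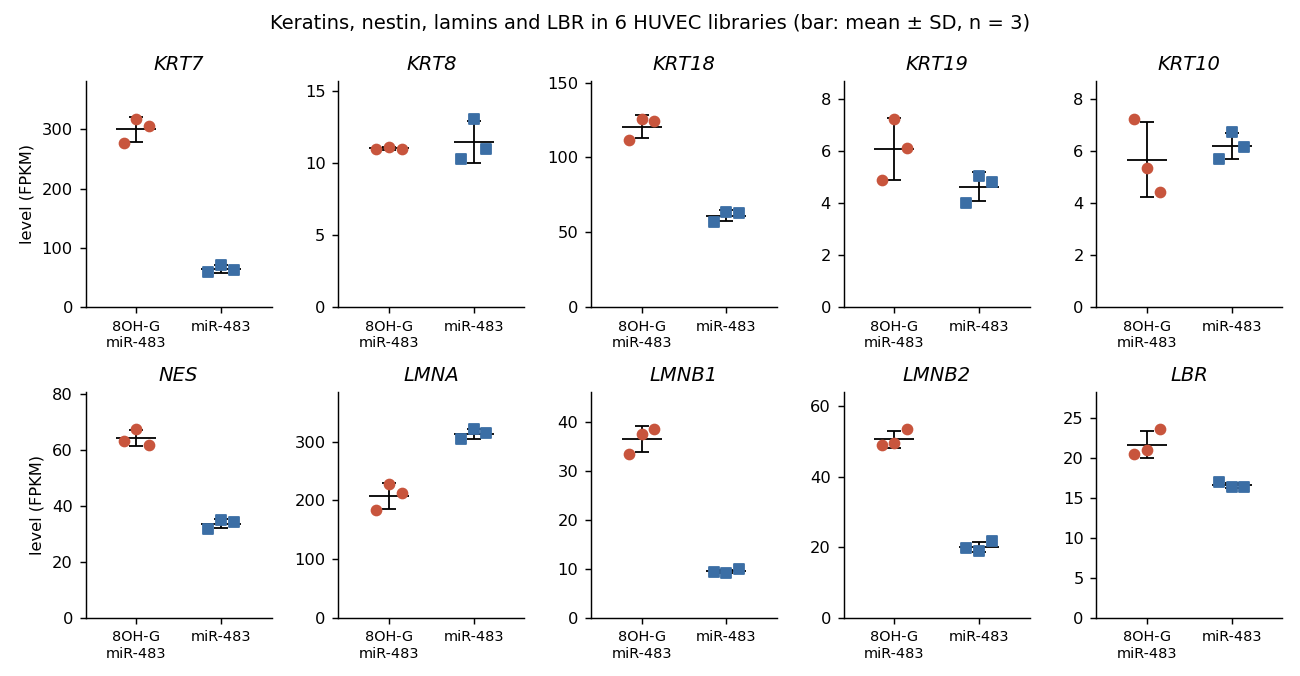
Level (FPKM, y axis) of each of the 10 genes in every library, with circles for 8OH-G miR-483 on the left, squares for miR-483 on the right and bars for the mean ± SD (n = 3). KRT7 lies at 277 to 318 FPKM with 8OH-G miR-483 and 58.7 to 71.7 FPKM with miR-483, LMNA is lower with 8OH-G miR-483, and the groups overlap for KRT8, KRT19 and KRT10.

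KRT7, a type II keratin of ductal and glandular epithelia, had the largest change of the 10. Its level was 277, 318 and 305 FPKM with 8OH-G miR-483 and 58.7, 71.7 and 63.0 FPKM with miR-483. The lowest 8OH-G miR-483 library was well above the highest miR-483 library. KRT7 averaged 300.0 ± 21.2 FPKM with 8OH-G miR-483 and 64.5 ± 6.65 FPKM with miR-483 (SD, n = 3 each), a 4.65-fold higher mean (log2 fold change 2.20, 95% interval 1.99 to 2.42, adjusted p = 1.15e-06, limma).

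KRT8, the other type II chain measured, did not pass. It was at 11.0, 11.1 and 11.0 FPKM with 8OH-G miR-483 and 10.3, 13.1 and 11.0 FPKM with miR-483. All 3 8OH-G miR-483 values lay inside the miR-483 range (log2 fold change -0.04, 95% interval -0.25 to 0.16, adjusted p = 0.691, limma). That interval contains neither the change of KRT7 nor that of KRT18.

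KRT18, the type I chain that pairs with KRT8 in simple epithelia, was at 112, 126 and 124 FPKM with 8OH-G miR-483 and 56.7, 63.4 and 63.1 FPKM with miR-483. Every 8OH-G miR-483 library was above every miR-483 library, and the mean was 1.97-fold higher (log2 fold change 0.97, 95% interval 0.79 to 1.15, adjusted p = 1.86e-05, limma). In GENCODE 29, KRT8 and KRT18 overlap on opposite strands and have 50 and 68 pseudogenes named after them, and KRT7 is overlapped by KRT86 on its own strand and by the antisense genes KRT7-AS and KRT87P. The sources used here state neither strand nor the treatment of shared reads, so these levels are uncertain to that extent.

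KRT19, a small type I keratin of simple epithelia, was low, at 4.88, 7.24 and 6.10 FPKM with 8OH-G miR-483 and 3.99, 5.06 and 4.83 FPKM with miR-483. Its groups overlapped through 8OH-G miR-483 replicate 1, and it did not pass (log2 fold change 0.32, 95% interval 0.02 to 0.62, adjusted p = 0.0643, limma). Without that library the adjusted p was 0.0159. KRT10, a type I keratin of the upper epidermis, was at 7.23, 5.32 and 4.41 FPKM with 8OH-G miR-483 and 5.68, 6.71 and 6.15 FPKM with miR-483. Its 8OH-G miR-483 libraries lay on both sides of the miR-483 libraries, with a coefficient of variation of 25.4% with 8OH-G miR-483 and 8.33% with miR-483 (log2 fold change -0.13, 95% interval -0.46 to 0.20, adjusted p = 0.468, limma).

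The balance of type I to type II messages differed between the groups. Type I levels summed to 132 FPKM ± 7.68 with 8OH-G miR-483 and 71.9 FPKM ± 4.77 with miR-483, and type II levels to 311 FPKM ± 21.3 with 8OH-G miR-483 and 75.9 FPKM ± 8.10 with miR-483. The ratio of type I to type II was 0.430, 0.421 and 0.426 in the 8OH-G miR-483 libraries, and 0.963, 0.886 and 1.00 in the miR-483 libraries. By these sums the 2 types were near parity with miR-483, and type II was in excess with 8OH-G miR-483. KRT8 did not pass, so the type II rise lay in KRT7. The sums leave out the other keratins. They, and the keratin ratios that follow, carry the uncertainty given above for KRT7, KRT8 and KRT18. A ratio taken within a library is not affected by a common scaling of that library, and it was given no test.

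As a share of the summed level of the 5 keratins, KRT7 was 67.7% ± 0.376 with 8OH-G miR-483 and 43.6% ± 1.16 with miR-483 (SD, n = 3 each). The ratio of KRT18 to KRT8 was 10.9 ± 0.650 with 8OH-G miR-483 and 5.36 ± 0.465 with miR-483. KRT7 relative to KRT18 was 2.49 ± 0.0343 with 8OH-G miR-483 and 1.05 ± 0.0686 with miR-483, so the pair that had nearly equal levels with miR-483 was unequal with 8OH-G miR-483.

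**Figure D2:**
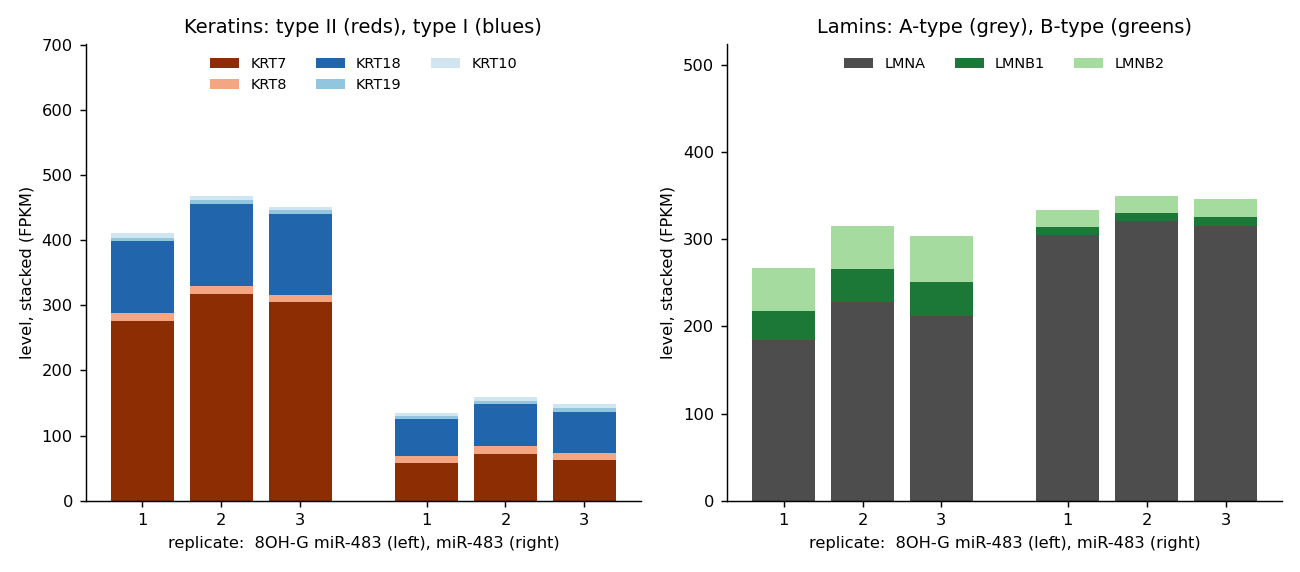
Stacked level (FPKM, y axis) of the keratins (left panel) and lamins (right panel) in each library, with the 3 8OH-G miR-483 replicates left of the 3 miR-483 replicates. The 5 keratins sum to 411 to 467 FPKM with 8OH-G miR-483 and 135 to 160.0 FPKM with miR-483, mostly as KRT7 in the 8OH-G miR-483 libraries, where the B-type lamins also take a larger part of the lamin bar.

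Among the other keratins, 2 were analysed and both rose, as did 35.0% of all tested genes. KRT80, a type II keratin, averaged 9.52 ± 1.64 FPKM with 8OH-G miR-483 and 2.27 ± 0.0538 FPKM with miR-483 (log2 fold change 1.68, adjusted p = 6.32e-06, limma). KRT15, a type I keratin of basal epithelial cells, averaged 2.10 ± 0.185 FPKM with 8OH-G miR-483 and 0.931 ± 0.396 FPKM with miR-483 (log2 fold change 0.70, adjusted p = 0.00316, limma). Both were far below KRT7 and KRT18 in level per length. KRT15 reached 1 FPKM in every 8OH-G miR-483 library but not in every miR-483 library. It would not have passed the filter without its 8OH-G miR-483 libraries, so its rise is not independent of the filter.

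Epithelial cells are another source of keratin messages. Of 10 epithelial markers listed 2 were analysed, and they summed to 7.08 to 9.74 FPKM with 8OH-G miR-483 and 9.76 to 12.1 FPKM with miR-483. CLDN7 fell to 8.19 ± 1.30 FPKM with 8OH-G miR-483, against 10.5 ± 1.27 FPKM with miR-483 (adjusted p = 0.0453, limma). That call was lost without 8OH-G miR-483 replicate 1 or 3 or miR-483 replicate 2 or 3. It was also lost without a filter and with a required fold of 1.2. Over all alternatives, the fold requirement included, the adjusted p reached 0.657 (limma). CLDN3, also a tight junction claudin, averaged 0.147 ± 0.0530 FPKM with 8OH-G miR-483 and 0.363 ± 0.115 FPKM with miR-483 and was too low to test. EPCAM, CDH1, KRT5, KRT14 and the 4 others listed, as well as 6 mesothelial markers, were not analysed here. The part of other cell types in the keratin values was not tested.

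Nestin, best known from neural progenitors and also made by dividing endothelium, rose. NES was at 63.3, 67.4 and 61.9 FPKM with 8OH-G miR-483 and 31.8, 34.9 and 34.2 FPKM with miR-483. The groups were far apart, with a mean 1.91-fold higher (log2 fold change 0.91, 95% interval 0.76 to 1.07, adjusted p = 1.20e-05, limma). Its partner vimentin (VIM) was at 2105, 2293 and 2307 FPKM with 8OH-G miR-483 and 2405, 2398 and 2417 FPKM with miR-483. VIM did not pass (log2 fold change -0.11, 95% interval -0.28 to 0.06, adjusted p = 0.24, limma), but it did, as lower with 8OH-G miR-483, after either of the other scalings, where its lowest adjusted p was 0.0183. Relative to the level of VIM, NES was 2.88% ± 0.171 with 8OH-G miR-483 and 1.40% ± 0.0683 with miR-483. For the 5 keratins together this share was 19.8% ± 0.488 with 8OH-G miR-483 and 6.14% ± 0.522 with miR-483. The 6 neural progenitor markers listed were not analysed here.

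Of 12 other intermediate filament genes 5 were tested, of which 2 rose, 2 fell and VIM did not pass. Among all tested genes 35.0% rose and 20.4% fell. BFSP1 fell to 2.35 ± 0.312 FPKM with 8OH-G miR-483, against 12.6 ± 0.825 FPKM with miR-483 (log2 fold change -2.02, adjusted p = 1.33e-06, limma); it encodes filensin, a lens filament protein. SYNC fell to 0.455 ± 0.0688 FPKM with 8OH-G miR-483, against 2.49 ± 0.307 FPKM with miR-483 (log2 fold change -1.26, adjusted p = 1.22e-05, limma), and it encodes the muscle protein syncoilin. SYNM (synemin), which joins vimentin and desmin filaments, averaged 3.14 ± 0.0883 FPKM with 8OH-G miR-483 and 2.15 ± 0.176 FPKM with miR-483, and the neurofilament gene NEFH averaged 1.56 ± 0.223 FPKM with 8OH-G miR-483 and 0.609 ± 0.0580 FPKM with miR-483. SYNM and NEFH both rose, and both were low in either group. NEFH passed the filter through its 8OH-G miR-483 libraries alone and SYNC through its miR-483 libraries alone. Neither change is therefore independent of the filter.

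The lamin genes moved in opposite directions, LMNA falling and both B-type genes rising. LMNA was at 184, 228 and 212 FPKM with 8OH-G miR-483 and 305, 321 and 315 FPKM with miR-483. The groups did not overlap, and the mean with 8OH-G miR-483 was 0.663 times that with miR-483 (log2 fold change -0.60, 95% interval -0.80 to -0.39, adjusted p = 0.000594, limma). Values are per gene, so lamin A and lamin C messages cannot be told apart.

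LMNB1 was at 33.5, 37.7 and 38.6 FPKM with 8OH-G miR-483 and 9.29, 9.21 and 9.93 FPKM with miR-483. The groups were far apart, and the mean was 3.86-fold higher with 8OH-G miR-483 (log2 fold change 1.84, 95% interval 1.67 to 2.01, adjusted p = 9.90e-07, limma). LMNB2, the other B-type gene, was at 48.9, 49.6 and 53.3 FPKM with 8OH-G miR-483 and 19.6, 19.0 and 21.6 FPKM with miR-483. It was also without overlap, with a mean 2.52-fold higher (log2 fold change 1.29, 95% interval 1.13 to 1.46, adjusted p = 3.33e-06, limma). LMNB2 overlaps TIMM13 in the annotation.

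The make-up of the lamin messages differed more than their sum, which was 295 FPKM ± 25.5 with 8OH-G miR-483 and 343 FPKM ± 8.31 with miR-483. As a share of that sum, LMNA was 70.4% ± 1.71 with 8OH-G miR-483 and 91.4% ± 0.514 with miR-483. The ratio of B-type lamins to LMNA was 0.447, 0.383 and 0.434 in the 8OH-G miR-483 libraries, and 0.0949, 0.0878 and 0.10 in the miR-483 libraries, 4.47 times higher in the mean with 8OH-G miR-483. Within the B-type genes, LMNB1 relative to LMNB2 was 0.723 ± 0.0382 with 8OH-G miR-483 and 0.473 ± 0.0125 with miR-483.

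LMNB1, LMNB2 and NES rose together, and for each a RefSeq window lies at the start of every annotated coding transcript. Their sequences before the start sites are therefore shown. Each is the 250 bases before the start on the gene's strand, from RefSeq on GRCh38.p14: chr5:126776886-126777135 (plus strand), chr19:2456960-2457209 (minus strand) and chr1:156677408-156677657 (minus strand). The submitters' processing notes name hg19, and no coordinates were carried between builds. Capitals mark matches on either strand to any of 5 motifs. One is CCAAT, the box that the factor NF-Y binds. Another is TTCCCGC, a site of the E2F type linked to the cell cycle. The third is TTTGAA, the element called CHR in cell-cycle promoters. The fourth is GGGCGG, the site of Sp1-type factors (here GC box), and the last is the core promoter element TATAAA.
LMNB1: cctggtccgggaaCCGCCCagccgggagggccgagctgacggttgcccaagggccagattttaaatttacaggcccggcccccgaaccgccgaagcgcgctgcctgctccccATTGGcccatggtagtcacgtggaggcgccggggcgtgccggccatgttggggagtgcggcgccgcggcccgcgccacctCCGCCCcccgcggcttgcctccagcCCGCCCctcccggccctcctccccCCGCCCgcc
LMNB2: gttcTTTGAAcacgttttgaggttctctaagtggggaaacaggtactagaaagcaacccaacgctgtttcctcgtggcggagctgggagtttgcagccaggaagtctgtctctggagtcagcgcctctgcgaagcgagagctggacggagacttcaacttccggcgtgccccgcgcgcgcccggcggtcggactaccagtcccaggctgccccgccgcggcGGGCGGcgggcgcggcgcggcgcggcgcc
NES: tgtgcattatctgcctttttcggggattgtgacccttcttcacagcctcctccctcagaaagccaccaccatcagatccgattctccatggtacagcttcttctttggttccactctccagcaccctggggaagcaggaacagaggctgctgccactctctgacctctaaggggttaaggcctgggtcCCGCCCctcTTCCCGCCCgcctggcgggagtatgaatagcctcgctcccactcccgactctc

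The LMNB1 window held 1 CCAAT match, 138 bases before the start on the minus strand, and 4 GC boxes. LMNB2 had 1 TTTGAA match at 246 bases and 1 GC box at 29. NES had 1 TTCCCGC match at 53 bases, which overlapped 1 of its 2 GC boxes. Of 34943 RefSeq windows of this length, 32.0% held CCAAT, 5.51% TTCCCGC, 13.4% TTTGAA, 42.5% GGGCGG and 10.8% TATAAA. The GC box was the only one of the 5 motifs found in all 3 windows shown. Another LMNB1 window, at chr5:126776373-126776622 with no annotated coding start within 250 bases, held none of the 5. A match is a description of the letters, and the motifs were chosen with these windows in view. Windows were matched by symbol for 7 of the 10 genes, all but KRT7, KRT18 and KRT19.

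LBR had the smallest change of the genes that passed, at 20.5, 20.9 and 23.6 FPKM with 8OH-G miR-483 and 17.0, 16.3 and 16.3 FPKM with miR-483. The groups did not overlap, though by a small margin (log2 fold change 0.37, 95% interval 0.20 to 0.53, adjusted p = 0.00271, limma). When a fold above 1.2 was required, LBR did not pass (adjusted p = 0.256, limma). TM7SF2 encodes the other C14 sterol reductase, and TM7SF2 fell to 4.19 ± 0.671 FPKM with 8OH-G miR-483, against 7.53 ± 1.32 FPKM with miR-483 (log2 fold change -0.71, adjusted p = 0.0022, limma). Of 9 late sterol synthesis genes, 5 fell and 2 rose, beside 20.4% lower and 35.0% higher among all tested genes. Their median was -0.22, against 0.10 for all tested genes. MSMO1 fell to 11.4 ± 1.12 FPKM with 8OH-G miR-483, against 25.9 ± 1.32 FPKM with miR-483, and CYP51A1 fell to 9.50 ± 0.608 FPKM with 8OH-G miR-483, against 15.8 ± 0.349 FPKM with miR-483; they encode the C4 methyl oxidase and the C14 demethylase. HSD17B7, the keto reductase gene, fell too (log2 fold change -0.42, adjusted p = 0.00965, limma). EBP, the sterol isomerase gene, rose but did not pass after either other scaling or with a required fold of 1.2. It also did not pass without 8OH-G miR-483 replicate 2, miR-483 replicate 1 or miR-483 replicate 2. Over all alternatives, the fold requirement included, its adjusted p reached 0.264 (limma).

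**Figure D3:**
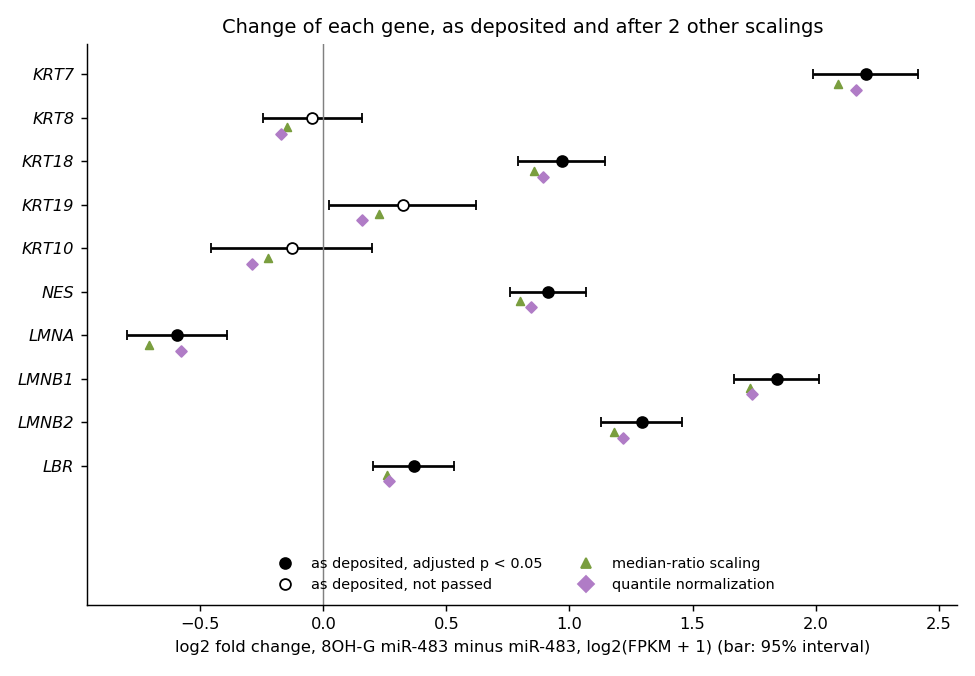
Log2 fold change (x axis, 8OH-G miR-483 minus miR-483, log2(FPKM + 1)) of each gene, with circles and 95% intervals as deposited (filled where the adjusted p was under 0.05), triangles for median-ratio scaling and diamonds for quantile normalization. No gene changes sign, and KRT7 stands at 2.20 as deposited, 2.09 by median-ratio scaling and 2.17 by quantile normalization.

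The order of levels differed too. With 8OH-G miR-483 the highest was KRT7, then LMNA, KRT18, NES, LMNB2, LMNB1, LBR, KRT8, KRT19 and KRT10. With miR-483 it was LMNA, then KRT7, KRT18, NES, LMNB2, LBR, KRT8, LMNB1, KRT10 and KRT19. Neighbours in either order had ranges that did not overlap, except KRT19 and KRT10 with 8OH-G miR-483 and KRT7 and KRT18 with miR-483.

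Of 22 tested partners of the lamina, 8 rose, 6 fell and 8 did not pass, beside 35.0% higher and 20.4% lower among all tested genes. Their median log2 fold change was 0.08, against 0.10 for all tested genes, so as a list they stood near the background. With any 1 library left out, 4 to 5 of them fell. TMPO, which encodes the lamin-binding LAP2 proteins, averaged 37.9 ± 4.88 FPKM with 8OH-G miR-483 and 15.9 ± 0.965 FPKM with miR-483 (adjusted p = 1.90e-05, limma). The inner membrane genes TMEM201 and NEMP1 rose as well, TMEM201 averaging 7.15 ± 0.228 FPKM with 8OH-G miR-483 and 2.59 ± 0.435 FPKM with miR-483. NEMP1 averaged 4.51 ± 0.456 FPKM with 8OH-G miR-483 and 1.62 ± 0.215 FPKM with miR-483. These 3 had the largest rises among the partners.

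The heterochromatin protein genes CBX1, CBX3 and CBX5 all rose, as did 35.0% of all tested genes. CBX5 did not pass when a fold above 1.2 was required (adjusted p = 0.0581, limma). CBX3 averaged 120.4 ± 7.75 FPKM with 8OH-G miR-483 and 81.1 ± 3.21 FPKM with miR-483 (log2 fold change 0.56, adjusted p = 0.000259, limma). BANF1, which encodes the chromatin-binding partner of LEM domain proteins, rose 1.49-fold in the mean. Emerin (EMD), a LEM domain protein, did not pass, averaging 37.9 ± 0.237 FPKM with 8OH-G miR-483 and 33.3 ± 2.59 FPKM with miR-483 (adjusted p = 0.0573, limma), and it passed without miR-483 replicate 2 and with the replicate block.

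Among the LINC genes, whose products join the lamina to the cytoskeleton, SUN1, SUN2, SYNE2 and SYNE3 fell and SYNE1 did not pass. SUN1 fell to 27.5 ± 0.440 FPKM with 8OH-G miR-483, against 59.1 ± 1.48 FPKM with miR-483 (log2 fold change -1.08, adjusted p = 2.98e-06, limma); its product binds A-type lamins. SUN2 fell to 36.8 ± 2.93 FPKM with 8OH-G miR-483, against 53.4 ± 1.34 FPKM with miR-483. SYNE3 fell to 2.71 ± 0.115 FPKM with 8OH-G miR-483, against 5.07 ± 0.206 FPKM with miR-483, and its product, nesprin-3, binds plectin. SYNE1 had a log2 fold change of -0.15 (adjusted p = 0.233, limma), and it passed as lower after quantile normalization.

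Nucleoporin genes shifted upward together. Of 30 tested, 29 rose and 0 fell, with a median of 0.61, against 35.0% higher among all tested genes. After either other scaling 25 of the 30 rose. NUP35, a scaffold subunit, averaged 8.77 ± 0.865 FPKM with 8OH-G miR-483 and 2.41 ± 0.238 FPKM with miR-483 (log2 fold change 1.52, adjusted p = 4.66e-06, limma). NDC1, a membrane anchor of the pore, averaged 10.2 ± 1.29 FPKM with 8OH-G miR-483 and 3.38 ± 0.207 FPKM with miR-483 (log2 fold change 1.34, adjusted p = 9.89e-06, limma). The scaffold genes NUP205 and NUP155 had log2 fold changes of 1.00 (adjusted p = 3.25e-05, limma) and 0.93 (adjusted p = 3.79e-05, limma). SEC13, which also coats secretory vesicles, was the exception at 126 ± 8.81 FPKM with 8OH-G miR-483 and 128 ± 5.82 FPKM with miR-483 (log2 fold change -0.02, adjusted p = 0.821, limma).

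Of 6 lamin tail maturation genes, 2 rose, 2 fell and 2 did not pass, beside 35.0% higher and 20.4% lower among all tested genes. NARF fell to 40.9 ± 4.59 FPKM with 8OH-G miR-483, against 92.8 ± 8.74 FPKM with miR-483 (log2 fold change -1.16, adjusted p = 2.98e-05, limma); its product binds prelamin A. ICMT, the methyltransferase of farnesylated tails, averaged 30.7 ± 3.20 FPKM with 8OH-G miR-483 and 21.6 ± 1.23 FPKM with miR-483. ZMPSTE24, the prelamin A protease, averaged 27.0 ± 1.58 FPKM with 8OH-G miR-483 and 21.8 ± 0.890 FPKM with miR-483. ICMT and ZMPSTE24 rose, but ZMPSTE24 did not pass after median-ratio scaling. The farnesyltransferase subunit gene FNTA was lower (adjusted p = 0.0402, limma), a call lost without any 8OH-G miR-483 replicate, without miR-483 replicate 3 and with the replicate block.

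Of 9 kinase, cyclin and caspase genes that act on lamins or keratins, 7 rose and 0 fell, beside 35.0% and 20.4% of all tested genes. CDK1, the mitotic kinase that phosphorylates lamins, was at 31.2, 33.7 and 36.3 FPKM with 8OH-G miR-483 and 5.90, 6.09 and 6.46 FPKM with miR-483. Its groups were far apart (log2 fold change 2.28, adjusted p = 5.57e-07, limma). Its cyclin gene CCNB1 had a log2 fold change of 2.25 (adjusted p = 1.59e-06, limma), and CCNB2 one of 1.75 (adjusted p = 2.23e-06, limma). VRK1, the kinase of BANF1, averaged 13.8 ± 1.55 FPKM with 8OH-G miR-483 and 4.34 ± 0.430 FPKM with miR-483. CASP6, whose product cuts lamin A, rose 1.32-fold in the mean, and PRKCA did not pass.

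Of 11 tested genes that tie filaments to junctions and matrix, 2 rose, 5 fell and 4 did not pass. Their median log2 fold change was -0.20, that of all tested genes 0.10, of which 35.0% rose and 20.4% fell. ITGB4 fell to 8.27 ± 0.533 FPKM with 8OH-G miR-483, against 312 ± 11.6 FPKM with miR-483 (log2 fold change -5.08, adjusted p = 5.44e-09, limma), and no tested gene fell by more; it encodes the integrin that binds plectin. ITGA6 fell to 65.0 ± 1.46 FPKM with 8OH-G miR-483, against 118 ± 4.23 FPKM with miR-483 (log2 fold change -0.85, adjusted p = 1.15e-05, limma), and it encodes the partner chain. PLEC and DST, which encode plakin cytolinkers, fell by less, with log2 fold changes of -0.34 and -0.48. The desmosomal gene PKP2 averaged 1.53 ± 0.198 FPKM with 8OH-G miR-483 and 0.597 ± 0.137 FPKM with miR-483 and rose (log2 fold change 0.67, adjusted p = 0.000609, limma). PKP2 passed the filter through its 8OH-G miR-483 libraries alone, so its rise is not independent of the filter. TCHP, the gene of the keratin-binding protein trichoplein, rose by less (log2 fold change 0.27, adjusted p = 0.0142, limma), and did not pass after either other scaling or without miR-483 replicate 1. COL17A1 fell to 2.05 ± 0.457 FPKM with 8OH-G miR-483, against 3.46 ± 0.0678 FPKM with miR-483 (log2 fold change -0.56, adjusted p = 0.00271, limma); it encodes a transmembrane collagen of hemidesmosomes. CD151, the tetraspanin partner of ITGA6, averaged 239 ± 14.6 FPKM with 8OH-G miR-483 and 275 ± 15.1 FPKM with miR-483 and did not pass (log2 fold change -0.20, adjusted p = 0.0584, limma), though it did, as lower, after either other scaling, with the replicate block and without miR-483 replicate 1.

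**Figure D4:**
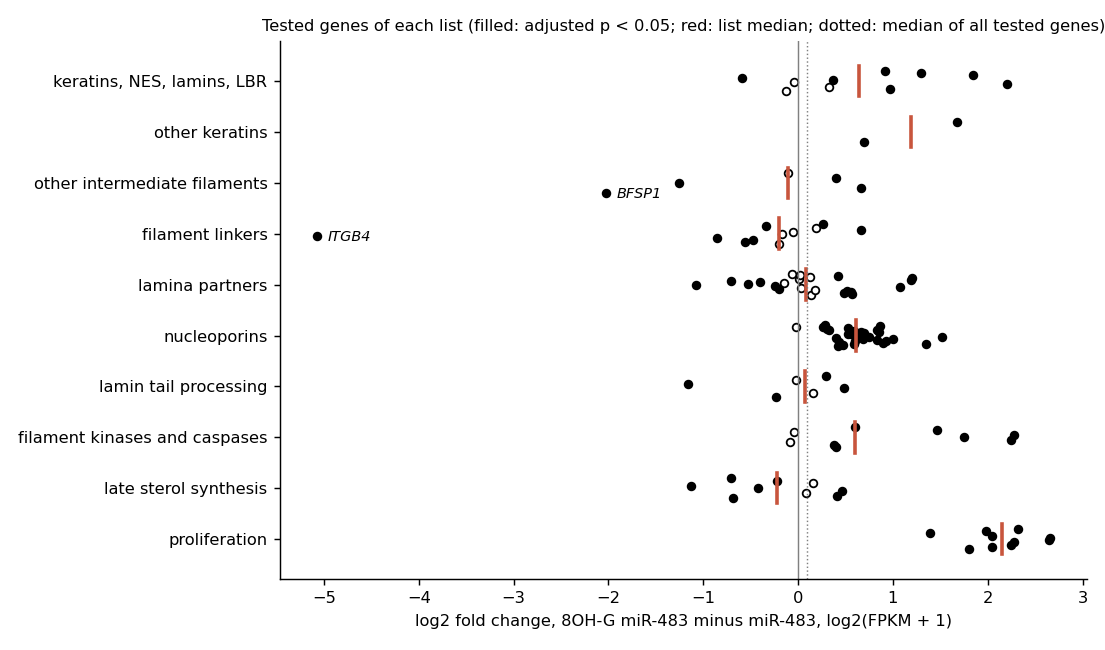
Log2 fold change (x axis, 8OH-G miR-483 minus miR-483, log2(FPKM + 1)) of each tested gene, 1 row per list, filled where the adjusted p was under 0.05, with list medians in red and the median of all tested genes (0.10) dotted. Nucleoporins other than SEC13 and all proliferation genes lie right of 0, lamina partners and filament linkers lie on both sides, and ITGB4 is at -5.08.

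Proliferation genes moved in the same libraries. All 10 listed (MKI67, TOP2A, CDK1, CCNB1, CCNA2, UBE2C, BUB1, PCNA, MCM2 and MCM4) rose, beside 35.0% of all tested genes. The rises were 1.39 (PCNA) to 2.66 (MCM4) on the log2 scale, with a median of 2.15. The summed level of these genes was 321 to 389 FPKM with 8OH-G miR-483 and 78.2 to 81.6 FPKM with miR-483. Their part in the changes of LMNB1, LMNB2, NES, TMPO and the nucleoporin genes was not tested. In bulk RNA, fewer cells with a message and less message per cell cannot be told apart. Markers of smooth muscle summed to 3.76 to 5.03 FPKM with 8OH-G miR-483 and 4.09 to 4.68 FPKM with miR-483, those of fibroblasts to 1.76 to 2.59 FPKM with 8OH-G miR-483 and 2.44 to 2.67 FPKM with miR-483 and those of leukocytes to 6.49 to 7.79 FPKM with 8OH-G miR-483 and 14.2 to 17.7 FPKM with miR-483. Of their markers above 1 FPKM in either group, ACTA2 and TAGLN of smooth muscle did not pass. COL3A1 of fibroblasts (log2 fold change -0.56) and LYZ and CD68 of leukocytes (-2.18 and -0.65) fell. LYZ passed the filter through its miR-483 libraries alone. Of these lists 6 of 8, 1 of 5 and 3 of 5 markers were not analysed here.

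Profiles over the 6 libraries were compared by Euclidean distance between centred log2(FPKM + 1) values, a description with no test. Each profile was centred over both groups, so a small distance requires a similar change between the groups. Shared control of such genes was not tested. Nearest to LMNB1 were CHAF1A (0.0594), MCM6 (0.0941) and CKS1B (0.109). CHAF1A, a chromatin assembly gene, averaged 11.7 ± 0.797 FPKM with 8OH-G miR-483 and 2.61 ± 0.191 FPKM with miR-483. Nearest to NES were NOC2L (0.0606), PPAN (0.0693) and BOP1 (0.0732). Nearest to KRT7 were CENPU (0.160), MYBL2 (0.165) and MT2A (0.183), and the metallothionein gene MT2A averaged 366 ± 25.0 FPKM with 8OH-G miR-483 and 84.0 ± 6.30 FPKM with miR-483.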

How the data were processed

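The 6 HUVEC libraries were 3 with 8OH-G miR-483 and 3 with miR-483, grouped by their labels. Tools named per the submitters' processing notes are STAR, HTSeq, cutadapt and DESeq2, on hg19, without versions or order. Each deposited file has 20792 rows of 1 decimal value, taken as FPKM made by the authors because column totals (1396537 to 1687283) exceed those of CPM or TPM. Rows whose name is repeated (3204) were left out. Mitochondrial rows held 71.3% to 76.6% of each total.

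Testing used limma 3.58.1 (R 4.3.3; trend, robust, group only) on log2(FPKM + 1) for the 12216 genes reaching 1 FPKM in 3 or more libraries, with Benjamini-Hochberg adjustment over all of them at 0.05. The pseudocount understates changes of low genes, and N-fold values are ratios of mean FPKM. The fit was tested on simulated data. The labels do not state that same-numbered libraries of the groups are pairs, so they were not taken as pairs. Their deviations had correlations of 0.0248, 0.339 and 0.00886. Named were all 10 genes, the largest called changes of each list (up to 4 each way), its genes over 100 FPKM, and markers of at least 1 FPKM, less what is not reported here; EMD, SYNE1, CBX1, CBX5, PLEC, PRKCA, CASP6 and CLDN3 were named after their values were seen. The genes and lists were chosen with earlier results of these data known. Alternatives covered the pseudocount, filter, scaling, repeated names, fold threshold, replicate block and each replicate left out.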

Additional observations from a re-analysis of the deposited data

How the results depend on the processing

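Of the 10 genes, KRT7, KRT18, NES, LMNA, LMNB1 and LMNB2 kept direction and call under all 14 alternatives. LBR did not pass with a required fold of 1.2, and KRT19 passed with the replicate block (adjusted p = 0.00848) and without 8OH-G miR-483 replicate 1. The sign of KRT8 and KRT10, neither of which passed, turned when 1 library was left out, with ranges of -0.11 to 0.048 and -0.29 to 0.0085. The replicate block gave 4635 higher and 2677 lower genes, against 4279 and 2493 without it, and 1 lower gene in lamin tail processing; not every library correlated best with its own number. A required fold of 1.2 left 2185 higher and 1126 lower genes. It left 1 higher among other intermediate filaments, 1 higher and 3 lower among filament linkers, 3 lower lamina partners, 0 higher and 1 lower in tail processing, and 0 higher and 3 lower in sterol synthesis. A floor of 1 FPKM in all 6 libraries left 1 higher other keratin, 1 higher and 1 lower other intermediate filament and 1 higher linker. Median-ratio scaling left 1 higher gene each in linkers, tail processing and sterol synthesis, quantile normalization 1 each in linkers and sterol synthesis and a type I to type II ratio of 0.413 with 8OH-G miR-483; without a filter 1 lower tail processing gene was left. Leaving out each replicate gave 1 to 2 lower genes in tail processing (FNTA) and 1 to 2 higher in sterol synthesis (EBP, lost without 8OH-G miR-483 replicate 2 or miR-483 replicates 1 or 2). Lower lamina partners then numbered 4 to 5, against 6 with all libraries, with LEMD2, PRR14 or both losing the call. Where no cause is evident from the alternative's construction, the cause was not tested. The planned seed-match description and its alternatives were not run. Read depth is unknown, and 3 libraries a group limit precision.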
